A study of Mus musculus with 45 samples.

Results

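Transcripts of 10 genes for prostaglandin synthesis and breakdown were measured in the mouse uterus: Pla2g4a, Ptgs1, Ptgs2, Ptges, Ptges2, Ptges3, Ptgis, Ptgds, Hpgd and Ptgr1. They were taken by symbol from a count table of 24422 genes, and all 10 were present in it. The samples were whole pieces of uterine horn (uterus), scraped mucosa (endometrium) and the muscle wall left after scraping (myometrium). They came from female CD-1 mice, an outbred stock, that were either wildtype (WT) or Plag1 knockouts (KO). Plag1 encodes a zinc finger transcription factor, and the uterus was profiled to see whether the maternal tract itself differed between the genotypes. Mice of both genotypes were sexually mature, 1 to 3 months old in the study's superovulations, and all had received 5 IU of pregnant mare serum and then 5 IU of human chorionic gonadotropin (hCG) 2 days later to superovulate them. They were killed on the day after hCG. Whether each female had been mated is not given in the sources used here. In the knockout allele, per the study, lacZ stands in place of the whole Plag1 reading frame, and no tissue-specific Cre is named. Each of the 6 groups of tissue and genotype held 7 mice, and the same 14 mice gave all 3 tissues, while the labels' design text speaks of 8 mice per genotype.

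Prostaglandins are short-lived lipid signals made from arachidonic acid. Phospholipases free the fatty acid from membranes, cyclooxygenases turn it into prostaglandin H2, and terminal synthases convert that into prostaglandin E2, prostacyclin, prostaglandin D2 and related molecules. In female reproduction these signals are known for their parts in ovulation and implantation, in vessel tone and in contraction of the uterine muscle wall. Dehydrogenases and reductases end them.

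Counts were of molecules tagged at their 5′ ends, so a gene's length did not enter its count. Levels below are CPM, counts scaled to a common total of gene counts per sample, without further factors. Libraries held 264095 to 1232992 counts, and 3 counts, taken as the least a sample could show, stood for 1.23 to 11.7 CPM. Plag1 itself had 0 to 2 counts per group in either genotype, too few to check the knockout. The 7 epithelial markers (Krt8, Krt18, Krt19, Epcam, Cdh1, Cldn4 and Cldn7) were all higher in endometrium than in myometrium, and the 6 smooth muscle markers (Acta2, Des, Myh11, Cnn1, Tagln and Actg2) were all lower, in both genotypes. Stromal markers were lower for 4 of 6 in both, mast cell markers for 4 of 5 in WT and 2 of 5 in KO, and no marker of any of the 10 cell type lists was called between genotypes. The WT endometrium of mouse 8 carried 6128 CPM of oviduct markers, with a median of 82.4 in its group. A pair of scrapings stood apart: the summed CPM of the muscle markers was 13686 in the WT endometrium of mouse 3 and 13164 in the KO endometrium of mouse 13, against 440 to 4608 and 208 to 1039 in the other mice of those groups. Fewer cells of a type and less RNA per cell cannot be told apart in tissue samples of this kind.

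Promoter sequences, the 250 bases before an annotated start, were found in RefSeq (GRCm38.p6) for 9 of the 10 genes, with 10 promoters in all, and none for Ptgis. The following 3 are shown because their genes had the layer differences or the genotype values described below and because of what they hold of the consensus for PLAG1, the factor removed in the KO. They are read 5′ to 3′ on the gene's own strand and end at the base before the start, and capitals mark motif matches.
Ptgs1, chr2:36230176-36230425, plus strand: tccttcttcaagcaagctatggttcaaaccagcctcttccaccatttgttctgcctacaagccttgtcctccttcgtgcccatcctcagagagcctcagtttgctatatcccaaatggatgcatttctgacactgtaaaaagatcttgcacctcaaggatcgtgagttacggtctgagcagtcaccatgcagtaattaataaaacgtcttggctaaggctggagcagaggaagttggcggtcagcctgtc
Ptgr1, chr4:58987079-58987328, minus strand: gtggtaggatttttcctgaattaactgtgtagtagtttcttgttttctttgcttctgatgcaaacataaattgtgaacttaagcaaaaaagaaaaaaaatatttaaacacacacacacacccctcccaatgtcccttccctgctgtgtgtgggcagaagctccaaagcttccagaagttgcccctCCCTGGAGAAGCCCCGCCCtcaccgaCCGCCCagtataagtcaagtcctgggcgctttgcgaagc
Ptgds, chr2:25469750-25469999, minus strand: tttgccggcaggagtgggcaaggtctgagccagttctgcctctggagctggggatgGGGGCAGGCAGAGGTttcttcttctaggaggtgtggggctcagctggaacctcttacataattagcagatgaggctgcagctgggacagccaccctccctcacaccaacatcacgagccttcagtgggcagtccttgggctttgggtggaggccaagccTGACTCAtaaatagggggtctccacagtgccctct

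In all, 7 motifs were searched on both strands, and their shares of 32851 promoters of the same length are given for scale. They were the TATA box TATAAA (12.4%), the GC box GGGCGG (32.7%), the AP-1 site TGANTCA (6.75%), the CRE TGACGTCA (1.55%), the NF-kB site, GGGA and TTCC around 2 free bases (1.21%), the CArG box of smooth muscle genes (1.47%) and the PLAG1 consensus (16.8%). None of them was in the Ptgs1 promoter. In that of Ptgr1, a PLAG1 consensus match on the reverse strand lay 65 to 51 bases before the start and overlapped a GC box at 52 to 47, and a further GC box lay at 39 to 34. The Ptgds promoter held a PLAG1 consensus match at 194 to 180 and an AP-1 site at 35 to 29 bases before the start. PLAG1 matches were also found for Ptges, 78 to 63 bases before the start, and Ptges3, 143 to 128 bases before it. The Ptgs2 promoter held a GC box at 170 to 165 and no PLAG1 match. Such a match is a description of letters only.

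A gene entered a comparison if 5 or more of the samples compared reached 1 CPM, edgeR's quasi-likelihood test was run over all such genes, and a gene was called when its Benjamini-Hochberg adjusted p was under 0.05. All 10 enzyme genes passed that filter in every comparison. Between endometrium and myometrium, 1 of the 10 was called in WT mice, Ptgis, which was lower in endometrium. The share of all 13227 genes called was 13.2%, with 6.81% higher and 6.39% lower. In KO mice 3 of the 10 were called, Ptgs1 higher and Ptgis and Ptgr1 lower, and the share of all 12969 genes was 19.3%, with 10.6% higher and 8.71% lower. Neither count stands clearly above its background. At an unadjusted p under 0.05 there were 5 of the 10 in WT, where 24.8% of all genes were, and 5 in KO, where 31% were. The median log2 fold change of the 10 genes was -0.27 in WT and -0.25 in KO, against 0.01 and 0.08 over all genes tested. With the mouse as a block, which uses that both layers came from the same animals, 5 of the 10 were called in WT: Ptgs1, Ptgis, Ptgds, Hpgd and Ptgr1. That fit called 1850 of all 13227 genes, 927 higher and 923 lower. Scaling by the ERCC spike-ins in place of edgeR's TMM factors moved the median of all genes to 0.21 in WT and 0.57 in KO and the share of higher genes among all calls from 51.6% to 67.3% and from 54.9% to 86.3%.

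**Figure D1:**
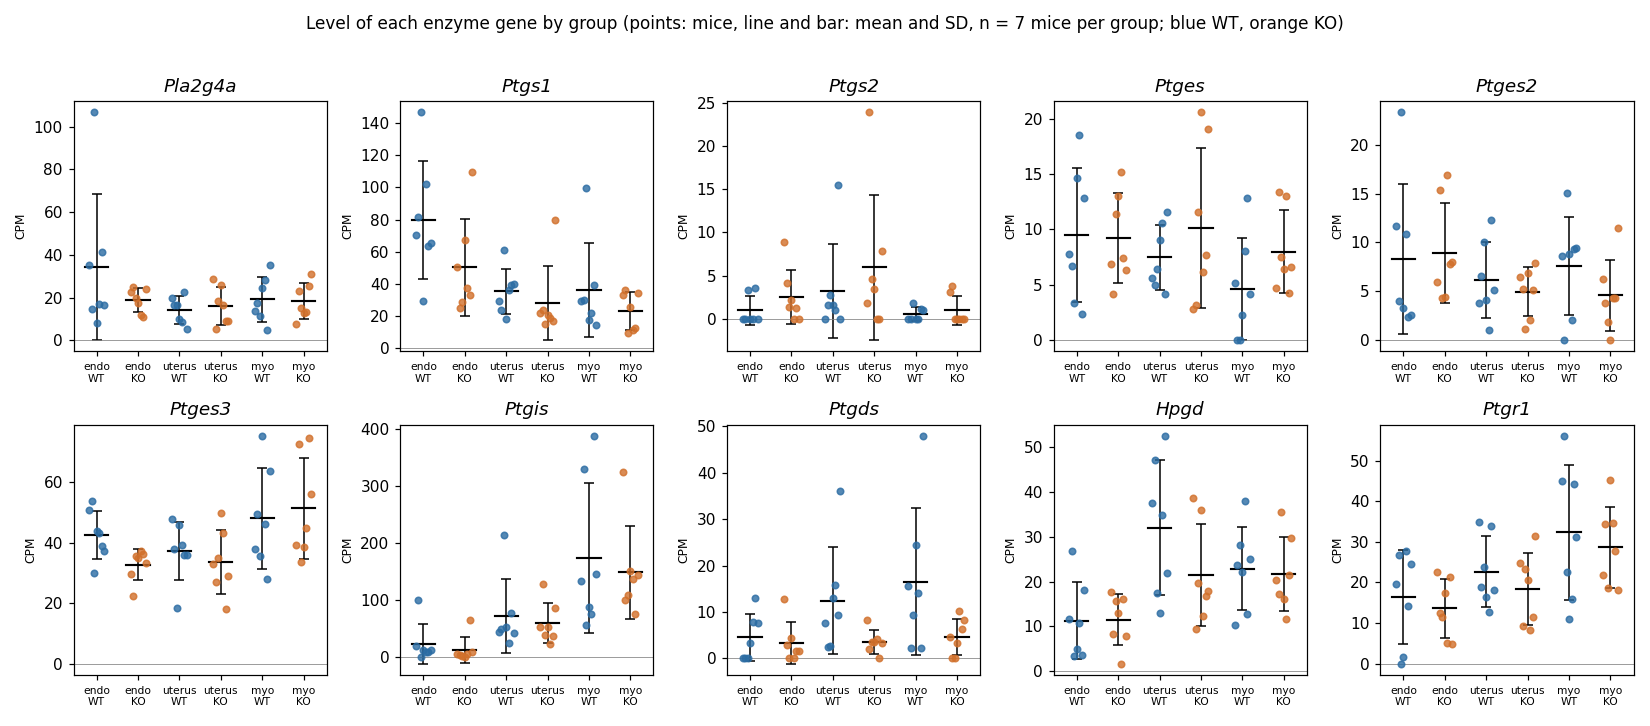
CPM (vertical axes, linear, each gene on its own scale) of the 10 enzyme genes in the 6 groups. Points are mice (blue WT, orange KO), and the line and bar are the mean and SD of 7 mice. Ptgis runs from a mean of 12.6 CPM in KO endometrium to 174 in WT myometrium, while Ptgs1 has its highest mean, 79.9, in WT endometrium.

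Supply of arachidonic acid was represented by Pla2g4a, the cytosolic phospholipase A2 that frees it from membrane phospholipids (NCBIM37, chr1:151676748-151808420, minus strand). Pla2g4a was counted in all 42 samples. Its group means ran from 14.1 ± 6.41 CPM in WT uterus to 34.3 ± 34.1 in WT endometrium (SD, n = 7), and it was called in no comparison. In WT endometrium Pla2g4a ran from 8.12 to 107 CPM with a median of 17.0, and in WT myometrium from 4.66 to 35.4 with a median of 17.2. The mean of WT endometrium was set by mouse 5, at 107 CPM, with the next mouse at 41.3. KO endometrium ran from 11.1 to 25.1 CPM with a median of 19.96, and KO myometrium from 7.84 to 31.2 with a median of 14.9. The medians of the layers were thus close in WT, and the ranges overlapped in both genotypes. Endometrium over myometrium, the log2 fold change was 0.59 in WT (95% interval -0.32 to 1.501) and 0.02 in KO (-0.69 to 0.73), so that a difference of at least 2-fold lay inside the WT interval and outside the KO one. Whole uterus held 5.15 to 22.6 CPM in WT and 5.19 to 28.5 in KO, with a median of 16.5 in each. Its start lies 138834 bases from that of Ptgs2 on the same chromosome.

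The cyclooxygenases make prostaglandin H2, Ptgs1 being the form found in many resting tissues and Ptgs2 the form known to be induced by gonadotropins, cytokines and injury. Ptgs1 (NCBIM37, chr2:36085946-36107792, plus strand) far outnumbered Ptgs2 (chr1:151947254-151955140, plus strand), with 1260 counts against 89 over the 42 samples. Ptgs1 was the higher in 41 of 42 samples, and in the remaining one, the uterus of KO mouse 4, each had 23 counts, or 23.9 CPM. Ptgs2 was at 0 in 20 samples and at 3 counts or fewer in 37.

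Ptgs1 was highest in endometrium. In WT endometrium it ran from 29.2 CPM in mouse 7 to 147 in mouse 5 with a median of 70.2, and in WT myometrium from 14.6 to 99.5 with a median of 29.4. Every one of the 7 WT mice had more Ptgs1 in endometrium than in myometrium, although the ranges of the groups overlapped. In WT the log2 fold change was 0.94 ± 0.37 (SE; adjusted p = 0.10), which did not pass the threshold. It was 1.14 with the mouse as a block (adjusted p = 0.0030) and 1.32 without mouse 5 (adjusted p = 0.0050). Mouse 5 had the highest Ptgs1 of the WT mice in every tissue, at 147, 61.3 and 99.5 CPM in endometrium, uterus and myometrium. Its summed epithelial markers were also the highest of WT in each, at 4950, 1775 and 760 CPM. The other 6 WT myometria had 91.5 to 276 CPM of these markers, and their part in the result was not tested.

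In KO mice Ptgs1 ran from 25.1 to 110 CPM in endometrium with a median of 37.1, and from 9.34 to 36.3 in myometrium with a median of 25.8. It was higher in endometrium in 6 of 7 KO mice, with a log2 fold change of 1.11 ± 0.38 and an adjusted p of 0.041. This call was at the edge of the threshold and held in 4 of 10 other settings, with adjusted p from 0.0041 with spike-in scaling to 0.65 in plate rows A to C. Plate rows are read here from the letters of the library codes. Of the 7 fits that each left out a mouse, it held in the one without mouse 4, and the adjusted p without mice 2, 6, 9, 11, 13 or 14 was 0.062 to 0.11. Within plate rows the change was 0.42 in rows A to C and 1.52 in rows D to F, neither of them called.

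Whole uterus had less Ptgs1 than endometrium in WT, from 17.99 to 61.3 CPM with a median of 35.97, in 7 of 7 mice, and the log2 fold change of -0.91 ± 0.29 (adjusted p = 0.11) passed the threshold with the mouse as a block (-0.89, adjusted p = 0.026). KO uterus ran from 15.1 to 79.5 CPM with a median of 20.6, with mouse 14 far above the next mouse, at 23.9. There too 7 of 7 mice had less in uterus than in endometrium, and the change was -0.65 (adjusted p = 0.47). The fit with the mouse as a block did not call it in KO either. The order of the group means was WT endometrium, 79.9 CPM, KO endometrium, 50.2, WT myometrium, 36.1, WT uterus, 35.3, KO uterus, 28.1, and KO myometrium, 23.3. Neighbours in that order overlapped in every case. The summed epithelial markers and Ptgs1 had a Spearman correlation of 0.47 over the 42 samples, 14 within each tissue, but 0.33 within endometrium, 0.36 within myometrium and -0.02 within uterus. These points share libraries and depth, and the part of epithelial cells in the result was not tested.

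Ptgs2 was low enough that single samples made its group values. In uterus it ran from 0 to 15.4 CPM in WT, the highest in mouse 10, and from 0 to 23.9 in KO, the highest in mouse 4. The medians were 1.64 and 3.43 CPM. In myometrium the highest value was 1.88 CPM in WT and 3.82 in KO, and both medians were 0. Uterus was above myometrium in 5 of 7 WT and 4 of 7 KO mice. As log2 fold changes these were 2.16 ± 0.96 in WT (adjusted p = 0.14) and 2.58 ± 0.90 in KO (adjusted p = 0.052), neither past the threshold. Without mouse 10 the WT change was 1.11 (adjusted p = 0.50). The KO change was called without mouse 2 (3.35, adjusted p = 0.032). Both were called with spike-in scaling (2.78 and 2.92), which moved the median of all genes to 0.75 in WT and 0.416 in KO. That scaling called 4567 of 13104 genes in WT, 97.1% of them higher, and 2416 of 12970 in KO, 92.9% of them higher. Endometrium reached 3.54 CPM in WT and 8.87 in KO, with medians of 0 and 1.43, and all of these are within a few counts of the floor.

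The synthases of prostaglandin E2 are the microsomal Ptges, the membrane-associated Ptges2 and the cytosolic Ptges3, which is also the p23 cochaperone of Hsp90 and of steroid receptors. Ptges3 (NCBIM37, chr10:127496010-127514328, plus strand, overlapping Baz2a on the same strand) had the most even group means of the 10 genes, by the ratio of highest to lowest. It was counted in all 42 samples, and its group means ran from 32.7 ± 5.22 CPM in KO endometrium to 51.4 ± 16.7 in KO myometrium (n = 7 each). In KO endometrium it ran from 22.3 to 37.1 CPM with a median of 34.8, and in KO myometrium from 33.6 to 74.7 with a median of 44.9. The groups overlapped over a narrow band, and 6 of 7 KO mice had less in endometrium. The log2 fold change of -0.65 ± 0.24 had an adjusted p of 0.056, and it passed the threshold in 3 of 10 other settings and without mouse 6 (-0.78, adjusted p = 0.042). WT endometrium held 30.003 to 53.6 CPM and WT myometrium 27.9 to 75.2, with medians of 43.3 and 46.0 and a log2 fold change of -0.25 ± 0.26.

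Ptges (NCBIM37, chr2:30744991-30785383, minus strand, overlapping the pseudogene Gm13400 on the same strand) had group means of 4.62 to 10.1 CPM. WT endometrium ran from 2.36 to 18.6 CPM with a median of 7.80, and WT myometrium from 0 to 12.8 with a median of 4.17. In 6 of 7 WT mice endometrium was the higher, and the log2 fold change was 0.82 with a 95% interval of -0.37 to 2.02. In KO mice the medians were 7.40 and 6.58 CPM and the fold change was 0.10. No comparison called Ptges, and its count was 3 or lower in 14 of 42 samples.

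Ptges2 (NCBIM37, chr2:32251416-32258259, plus strand) had group means of 4.58 to 8.93 CPM and 3 counts or fewer in 17 samples. In WT its median was 4.02 CPM in endometrium and 8.85 in myometrium, with ranges of 2.36 to 23.3 and 0 to 15.02. The order was the other way in KO, with medians of 7.82 and 4.27 CPM and ranges of 4.28 to 16.9 and 0 to 11.5. The log2 fold changes were -0.30 in WT and 0.80 in KO, and the test of the difference between them, the genotype by layer interaction, gave 1.09 with a 95% interval of -0.45 to 2.63 and an adjusted p of 0.99.

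Ptgis encodes prostacyclin synthase, whose product relaxes smooth muscle and holds back platelets (NCBIM37, chr2:167017305-167066104, minus strand, with the opposite-strand RNAs 1110018N20Rik and Gm14291 overlapping it). It was the most counted of the 10 genes, with 2571 counts, and had the clearest layer difference. In WT myometrium it ran from 56.3 to 388 CPM with a median of 133, and in WT endometrium from 0 in mouse 5 to 101 in mouse 3 with a median of 11.4. Each of the 7 WT mice had less in endometrium, although the ranges overlapped. On the log2 scale the change was -2.93 ± 0.57 (adjusted p = 0.00073).

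In KO myometrium Ptgis ran from 74.7 to 324 CPM with a median of 137, and in KO endometrium from 0 in mouse 9 to 64.6 in mouse 13 with a median of 4.93. Again all 7 mice had less in endometrium, and here the ranges did not overlap. Of the 15 pairs of groups of each of the 10 genes this was the only pair that stayed apart, and 5.8% of all genes tested did so between these layers in KO and 3.33% in WT. The KO log2 fold change was -3.22 ± 0.57 (adjusted p = 0.00025). The gap was narrow in a single animal: mouse 13 had both the highest endometrium and the lowest myometrium value, 64.6 and 74.7 CPM. Its endometrium value summed 3 libraries that ran from 26.1 to 84.3 CPM. The highest of them lay above the myometrium value, so the lack of overlap rests on the sum.

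**Figure D2:**
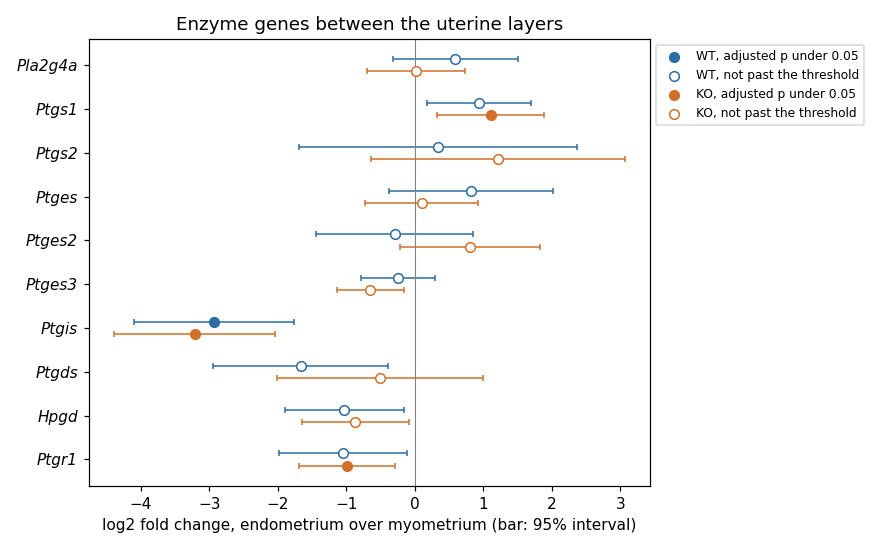
Log2 fold change of endometrium over myometrium (horizontal axis) for the 10 enzyme genes in WT (blue) and KO (orange), with 95% intervals from the edgeR fits of 7 mice per group. Filled points passed an adjusted p of 0.05: Ptgis in both genotypes, at -2.93 and -3.22, and Ptgs1 and Ptgr1 in KO alone, at 1.11 and -0.99, which does not show a difference between genotypes.

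Both layer differences of Ptgis passed the threshold in all 10 other settings and without any single mouse. Their size moved with mouse 3 in WT and mouse 13 in KO, whose endometria had the most Ptgis of their groups. Leaving out the highest endometrium value by itself makes the change larger. Those endometria were also the richest in muscle markers, and the part of muscle in this was not tested. Without mouse 3 the WT change was -4.00, and without mouse 13 the KO change was -5.32. Within plate rows A to C, which hold mouse 3, it was -2.22 in WT and -5.58 in KO, and within rows D to F, which hold mouse 13, it was -4.77 and -2.44, each of them called.

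Whole uterus had mean Ptgis levels between those of the layers. WT uterus ran from 24.3 to 215 CPM of Ptgis with a median of 49.5, and KO uterus from 22.6 to 128 with a median of 53.2. The order of the means was myometrium, 174 CPM in WT and 148 in KO, then uterus, 71.9 and 59.6, then endometrium, 22.9 and 12.6, and the genotypes overlapped within each tissue. Uterus over myometrium was -1.11 ± 0.32 in KO (adjusted p = 0.021), the only call among the 10 genes in that comparison, where 14.1% of all genes were called, 8.03% higher and 6.06% lower. It was lost without mouse 2, 6, 9 or 11 (adjusted p 0.052 to 0.16) and with spike-in scaling (-0.66, adjusted p = 0.19). In WT the change was -1.20 ± 0.41 (adjusted p = 0.058), and edgeR called 12% of all genes (6.73% higher and 5.32% lower) but 0 of the 10. DESeq2 called 1 of the 10, Ptgis, and 1793 of 11579 genes in all. Unadjusted, Ptgs2 and Ptgis, 2 of the 10, had p under 0.05 in each genotype, beside 27.1% of all genes in WT and 28.2% in KO. Without mouse 5 the WT change of Ptgis was -1.83 (adjusted p = 0.0016). With the mouse as a block Ptgis was called there too (-1.20, adjusted p = 0.0039).

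Uterus over endometrium called 0 of the 10 in WT and 0 in KO with edgeR, against 1.6% (1.05% higher and 0.55% lower) and 1.25% (0.926% and 0.324%) of all genes. At an unadjusted p under 0.05 there were 4 in WT and 2 in KO, beside 15.1% and 14.4% of all genes, and DESeq2 called 2, Ptgs1 and Hpgd, in WT and 1, Ptgis, in KO. Blocking on the mouse gave 3 in WT (Ptgs1, Ptgis and Hpgd) and 1 in KO, Ptgis. These fits also called more of all genes. DESeq2 called 471 of 9284 in WT and 431 of 9694 in KO, and the block 671 of 13091 and 475 of 12961. The blocked change of Ptgis in uterus over endometrium was 2.07 in WT (adjusted p = 0.00023) and 3.09 in KO (adjusted p = 5.7e-05). Without the block it was 1.69 (adjusted p = 0.14) and 2.16 (adjusted p = 0.079). Without mouse 3 it was 3.07 in WT (adjusted p = 0.0013), and without mouse 13 it was 4.15 in KO (adjusted p = 1.7e-05).

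The genes whose CPM ran most like that of Ptgis over the 42 samples, among 4298 genes with a mean of at least 20 CPM, were Myh11 (Spearman 0.94), Lmod1 (0.92) and Smtn (0.92), all known as smooth muscle genes. The summed CPM of the 6 smooth muscle markers had a Spearman correlation with Ptgis of 0.91 over all samples, 0.74 within the 14 of endometrium, 0.44 within uterus and 0.83 within myometrium. That sum ran from 16373 to 40212 CPM in WT myometrium and from 440 to 13686 in WT endometrium, and from 21508 to 35717 and 208 to 13164 in KO. None of the 6 markers was at 0 in any group. Such points share libraries and depth, and the part of muscle content in the Ptgis difference was not tested.

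**Figure D3:**
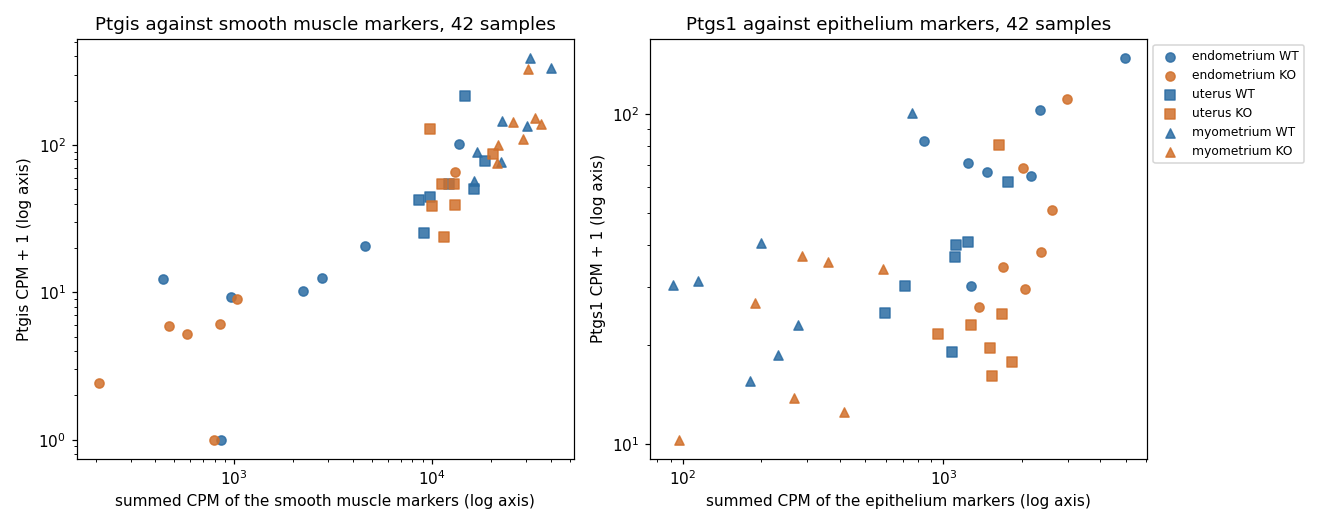
Ptgis against the summed CPM of 6 smooth muscle markers (left) and Ptgs1 against that of 7 epithelial markers (right), in 42 samples. All axes are logarithmic, and 1 CPM was added to the Ptgis and Ptgs1 levels. The endometria of WT mouse 3 and KO mouse 13 lie among the uterus samples in the left plot, at 13686 and 13164 CPM of muscle markers, and Ptgs1 follows the epithelial sum loosely (Spearman 0.47).

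Ptgds encodes the lipocalin-type prostaglandin D2 synthase, which also carries lipophilic molecules (NCBIM37, chr2:25322229-25325566, minus strand). Counts were low, with 3 or fewer in 24 of 42 samples. WT myometrium had the highest mean, 16.5 ± 15.9 CPM, with a range of 2.16 to 47.9 and a median of 14.0. WT endometrium ran from 0 to 13.0 CPM with a median of 3.25, and 6 of 7 WT mice had less there than in myometrium. This came to -1.66 ± 0.62 as a log2 fold change (adjusted p = 0.079), -1.61 with the mouse as a block (adjusted p = 0.022), -2.40 without mouse 10 (adjusted p = 0.017) and -1.23 without mouse 12 (adjusted p = 0.33).

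The largest genotype values among the enzyme genes were also those of Ptgds. In WT uterus it ran from 2.47 to 36.04 CPM with a median of 9.26, and in KO uterus from 0 to 8.26 with a median of 3.43. In myometrium the WT values above stand beside 0 to 10.1 CPM in KO, with a median of 4.70. In both tissues the highest WT value came from mouse 12 and the genotypes overlapped. KO over WT, Ptgds had a log2 fold change of -1.65 ± 0.58 in uterus (unadjusted p = 0.0095, adjusted p = 0.66) and -1.68 ± 0.58 in myometrium (unadjusted p = 0.0066, adjusted p = 0.99), so that neither passed the threshold. Both rest on the same 14 mice.

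**Figure D4:**
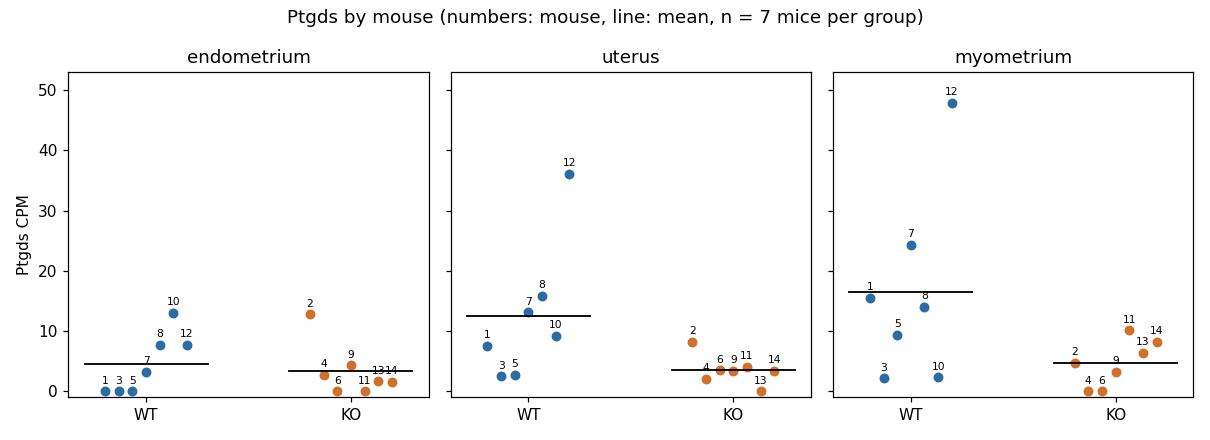
Ptgds CPM (vertical axis, linear) by mouse in endometrium, uterus and myometrium, WT in blue and KO in orange, with the mouse number above each point and the mean as a line (n = 7). WT mouse 12 is the highest in uterus, 36.04 CPM, and in myometrium, 47.9 CPM, and the KO samples stay at or below 12.8 CPM in all 3 tissues.

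Without mouse 12 the 2 changes of Ptgds were -1.13 and -1.11, and within plate rows they were -0.72 (A to C) and -3.02 (D to F) in uterus and -2.77 and -1.53 in myometrium. In endometrium WT and KO had medians of 3.25 and 1.65 CPM and a change of -0.53 ± 0.77. Of the defining markers of adipocytes, Adipoq, Plin1 and Cidec were at 0 in all KO samples and were counted in at most 2 of 7 samples of any WT group. Over the 4 markers of that list, which adds Fabp4, the summed level was 58.3 to 194 CPM in WT myometrium and 24.3 to 109 in KO, and 13.7 to 107 and 12.8 to 43.7 in uterus. Mouse 12, highest in Ptgds, had the lowest sum of the WT myometria. Ptgds had a Spearman correlation of -0.10 with that sum within myometrium and 0.15 within uterus. With the summed mesothelial markers it was 0.77 within endometrium, -0.095 within uterus and 0.35 within myometrium. The part of either tissue was not tested.

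Breakdown starts with Hpgd, the 15-hydroxyprostaglandin dehydrogenase that inactivates prostaglandin E2 and others (NCBIM37, chr8:58773349-58799843, plus strand). Hpgd was highest in WT uterus, from 13.1 to 52.5 CPM with a median of 34.9, against 3.33 to 26.8 with a median of 10.8 in WT endometrium. The ranges overlapped, but uterus was the higher in 7 of 7 mice. Uterus over endometrium in WT, the log2 fold change was 1.69 ± 0.45 (adjusted p = 0.055), and with the mouse as a block it was 1.81 (adjusted p = 0.00072). Without mouse 3 it was 1.97 (adjusted p = 0.025). In KO mice uterus was again the higher in 7 of 7, by 1.03 ± 0.40 (adjusted p = 0.22). The KO change was called in 0 of 10 other settings, the mouse as a block included.

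WT myometrium held 10.4 to 38.0 CPM of Hpgd with a median of 23.7, KO myometrium 11.6 to 35.5 with 20.4, KO uterus 9.34 to 38.6 with 17.9 and KO endometrium 1.69 to 17.7 with 13.1. Endometrium was lower than myometrium in 5 of 7 WT and 7 of 7 KO mice. That difference was -1.03 ± 0.43 in WT (adjusted p = 0.12) and -0.87 ± 0.38 in KO (adjusted p = 0.11), and blocking on the mouse called it in WT (-1.20, adjusted p = 0.031), as did leaving out mouse 3 (-1.44, adjusted p = 0.037). In KO it was called in 0 of 10 other settings, the block included. The summed stromal markers, 1446 to 2451 CPM in WT endometrium and 4320 to 7572 in WT myometrium, had a Spearman correlation of 0.56 with Hpgd over the 42 samples, and their part in it was not tested. Sepp1, Gng11 and Gm15867 were the genes most like Hpgd over the 42 samples (Spearman 0.80, 0.76 and 0.72).

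Ptgr1, prostaglandin reductase 1, acts after Hpgd on the oxidised products (NCBIM37, chr4:58978311-58999991, minus strand). In KO endometrium it ran from 4.77 to 22.7 CPM with a median of 12.6, and in KO myometrium from 18.1 to 45.2 with a median of 27.8. In 6 of 7 KO mice endometrium was the lower. The ranges met between 18.1 and 22.7 CPM. Its log2 fold change was -0.99 ± 0.34 (adjusted p = 0.041), but it was lost without mouse 4, 6, 9, 11 or 14 (adjusted p 0.057 to 0.10) and was -0.40 with spike-in scaling (adjusted p = 0.51). Within plate rows it was -0.66 (A to C) and -1.28 (D to F), neither of them called.

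In WT the values of Ptgr1 were alike: 0 to 27.8 CPM with a median of 19.5 in endometrium and 11.1 to 56.0 with 31.2 in myometrium. The change was -1.04 ± 0.46 (adjusted p = 0.15), and -1.13 with the block (adjusted p = 0.023). Again 6 of 7 mice were lower in endometrium. Uterus held 12.7 to 34.8 CPM in WT and 8.23 to 31.4 in KO. The genes most like it were Zyx, Mprip and Cdc42ep3 (Spearman 0.67, 0.67 and 0.66), and the smooth muscle sum had a Spearman correlation of 0.63 with Ptgr1 over all samples, which share libraries and depth. Its part in the layer difference was not tested. The same measure named Cdc42ep4, Nucb1 and Bcl2l1 for Ptgs1 (0.71 to 0.65), Col4a6, Tex10 and Senp5 for Ptges3 (0.71 to 0.67) and Lamp2, Zfand5 and Mettl9 for Pla2g4a (0.60 to 0.58).

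Other genes of the pathway were read from the same fits, 39 in a list of phospholipases, synthases, transporters, breakdown enzymes and receptors. Of these, 28 were tested between the layers in WT, with 6 higher in endometrium and 5 lower, and 29 in KO, with 9 higher and 5 lower. All genes tested gave 13.2% in WT (6.81% higher and 6.39% lower) and 19.3% in KO (10.6% and 8.71%). Without mouse 12 the WT counts were 3 higher and 4 lower. Their median log2 fold change was 0.25 in WT and 0.84 in KO, against 0.01 and 0.08 over all genes tested. Those past the threshold in both genotypes were 4 higher (Pla2g10, Pla2g12a, Hpgds and Cbr3) and 4 lower (Akr1c14, Ptger3, Ptgir and Ptgfrn). A further 6 of the list had no count in any sample.

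The secreted phospholipases Pla2g12a and Pla2g10 were among the higher genes, but this class did not go a single way. In KO, Pla2g5 was called higher (3.49, adjusted p = 0.012) and Pla2g2d lower (-1.45, adjusted p = 0.048). In WT their changes were 2.79 (adjusted p = 0.071) and -1.97 (adjusted p = 0.062), neither called. Pla2g12a had a mean of 20.1 ± 12.7 CPM in WT endometrium and 6.94 ± 3.60 in WT myometrium, and 25.4 ± 11.4 and 7.08 ± 6.82 in KO (n = 7). Its log2 fold change was 1.25 in WT (adjusted p = 0.047) and 1.71 in KO (adjusted p = 0.0044), and the WT call was lost in 11 of 17 other fits, among them the one with the mouse as a block (1.22, adjusted p = 0.053) and those without mouse 1, 3, 5, 7, 10 or 12, while the KO change was 2.37 without mouse 2. Pla2g10 was uneven between mice, from 0 to 88.8 CPM in WT endometrium with a median of 5.36, and its changes were 3.10 and 4.66, each call lost in 4 of 17 other fits. Without mouse 12 the WT change of Pla2g10 was 2.86 (adjusted p = 0.071), and the KO change was 3.10 without mouse 9 (adjusted p = 0.075) and 6.26 without mouse 14. Hpgds, the haematopoietic prostaglandin D2 synthase, had 33.1 ± 18.03 CPM in WT endometrium and 9.49 ± 5.41 in WT myometrium, with changes of 1.78 ± 0.42 in WT and 1.69 ± 0.37 in KO. Ptgds, the other prostaglandin D2 synthase, had its highest WT mean in myometrium. The main fits called it between the layers in neither genotype (-1.66, adjusted p = 0.079 in WT and -0.51, adjusted p = 0.69 in KO). An opposite pattern of the 2 synthases is therefore not shown.

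Among the breakdown genes Cbr3, a carbonyl reductase, was higher in endometrium by 1.81 ± 0.32 in WT and 1.35 ± 0.31 in KO, from 14.5 ± 5.83 CPM in WT myometrium to 55.8 ± 19.5 in WT endometrium. Akr1c14 was lower in endometrium, by -2.11 ± 0.65 in WT and -2.79 ± 0.54 in KO. It had 11.5 ± 8.69 CPM in WT myometrium and 2.81 ± 2.57 in WT endometrium. The WT call of Akr1c14 was lost in 6 of 17 other fits, among them those without mouse 1, 7 or 12 (adjusted p 0.072 to 0.18).

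Receptors differed in the layer where they were found. The prostaglandin E2 receptor Ptger3, which is coupled to contraction, had 24.6 ± 9.57 CPM in WT myometrium and 2.22 ± 2.51 in WT endometrium, with changes of -3.38 ± 0.52 in WT and -2.60 ± 0.61 in KO. Without mouse 3 the WT change of Ptger3 was -4.05, and without mouse 13 the KO change was -5.19. The prostacyclin receptor Ptgir was lower in endometrium too, by -3.81 ± 0.72 in WT and -2.72 ± 0.72 in KO, at 8.81 ± 3.36 CPM in WT myometrium and 0.38 ± 1.01 in WT endometrium. Without those mice the changes of Ptgir were -5.62 and -4.08. Their size rests on few counts, 2 over all WT and 6 over all KO endometria, against 39 and 23 in myometrium. Thus Ptgis and the receptor of its product were both lower in endometrium in both genotypes. Ptgfrn, a partner protein that inhibits the prostaglandin F2α receptor, had 37.2 ± 11.3 CPM in WT myometrium and 12.1 ± 9.57 in WT endometrium, with changes of -1.71 and -1.88, and of -2.35 and -2.48 without mice 3 and 13.

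The prostaglandin E2 receptors Ptger2 and Ptger4 and the thromboxane receptor Tbxa2r passed the threshold in WT and not in KO. Their changes were 2.10 ± 0.68, 1.76 ± 0.49 and -2.58 ± 0.73 in WT and 0.06 ± 0.79, 1.17 ± 0.59 and -0.79 ± 0.55 in KO. The WT call was lost in 6 of 17 other fits for Ptger2 (among them those without mouse 1, 5, 7, 8 or 12), in 4 for Ptger4 (without mouse 3 or 10) and in 3 for Tbxa2r (without mouse 10, at -1.72). Without mouse 10 the Ptger2 change was 3.08. The interaction test called none of the 30 pathway genes it covered, so these differences between genotypes are not shown. Ptgdr, a prostaglandin D2 receptor, passed in KO (2.82 ± 0.84), where the call was lost in 4 of 17 other fits (among them the one without mouse 2), and not in WT (1.45 ± 0.87). The other 3 receptors, Ptger1, Ptgfr and Ptgdr2, had group means under 3 CPM throughout.

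**Figure D5:**
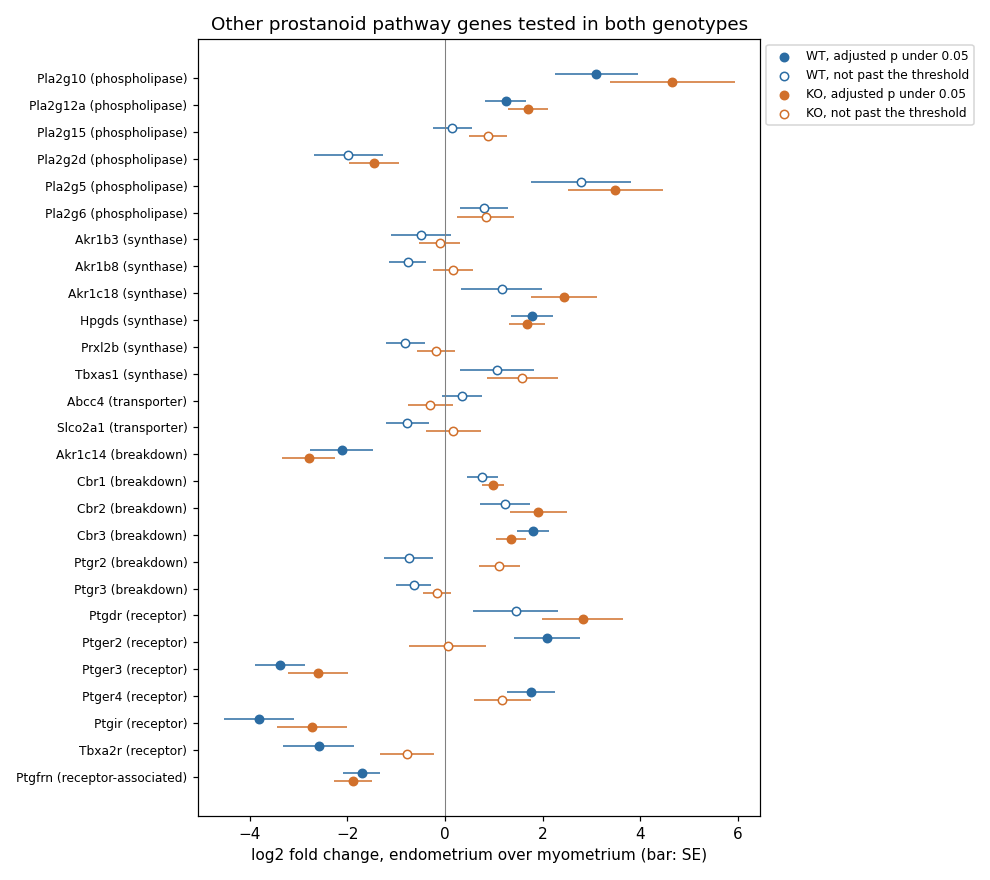
Log2 fold change of endometrium over myometrium (horizontal axis, bars are the SE) of the 27 other pathway genes tested in both genotypes, ordered by role, WT in blue and KO in orange. Filled points passed an adjusted p of 0.05. Ptger3, Ptgir and Ptgfrn lie to the left in both genotypes, and Pla2g10, Pla2g12a, Hpgds and Cbr3 to the right.

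Between the genotypes 0 of the 10 enzyme genes were called with edgeR in uterus, in endometrium or in myometrium, and 0% of all genes were called in each. DESeq2 also called 0 of the 10, and over all genes it called 7, 1 and 0. In uterus it gave an adjusted p for only 6678 genes. Ptgds was not among them, so DESeq2 could not have called it there. At an unadjusted p under 0.05, 1 of the 10 stood in uterus and 1 in myometrium, Ptgds in both, and 0 in endometrium, against 5.64%, 4.22% and 5.2% of all genes. No setting tried and no mouse left out gave a call. The intervals still allow changes of some size. For Ptgs1 the log2 fold change of KO over WT was -0.24 in uterus (95% interval -0.94 to 0.47), -0.50 in endometrium (-1.20 to 0.21) and -0.64 in myometrium (-1.44 to 0.15). That of Ptgis was -0.11 (-0.91 to 0.69), -0.57 (-2.14 to 0.99) and -0.21 (-0.89 to 0.48) in the same tissues. For Ptges3 the intervals were the narrowest, -0.67 to 0.39, -0.80 to 0.24 and -0.37 to 0.63, which leaves out a 2-fold change in each tissue. Ptgs2 was too sparse to bound, with intervals reaching 2.74, 3.31 and 2.48.

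The other pathway genes gave 0 calls between genotypes with edgeR as well. At an unadjusted p under 0.05 there were 1 of 29 tested in uterus, 3 of 27 in endometrium and 1 of 27 in myometrium. The shares of all genes were 5.64%, 5.2% and 4.22% in the same order. Ptger2 had the lowest of these p-values in endometrium, 10.4 ± 6.91 CPM in WT and 1.98 ± 1.55 in KO, with a log2 fold change of -1.87 ± 0.56 (unadjusted p = 0.0027, adjusted p = 0.76). The genotype by layer interaction called 0 of the 10 enzyme genes with edgeR and 0 with DESeq2, 0 of them had an unadjusted p under 0.05, against 4.6% of all genes, and 0% of 14314 genes were called. Its intervals were -0.96 to 1.30 for Ptgs1, -2.03 to 1.44 for Ptgis and -1.16 to 1.27 for Ptgr1.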

How the data were processed

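Uterus, endometrium and myometrium of 7 WT and 7 Plag1KO mice were profiled by STRT RNA-seq, a 5′-end protocol with molecular identifiers, in 45 libraries. The authors deposited raw counts for 24422 genes and 92 ERCC spike-ins. Per the study's methods they joined identifiers, trimmed, aligned with TopHat to mm9 and counted with Homer over UCSC gene models, while the submitters' processing notes name HTSeq. The use of strand and of multiply mapped reads is not given in the sources used here, so overlapping genes are uncertain. None of the enzyme genes had a 5′ end (100 bases) with a copy of 95% identity or more elsewhere in NCBIM37 (blastn 2.17.0).

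The labels gave groups and mouse numbers, and placed 3 endometrium libraries with KO mouse 13 and 2 myometrium libraries with WT mouse 12. These repeats differed by more than sampling noise (chi-square per degree of freedom 2.21 to 4.93) and were summed, giving 42 samples. Tests used edgeR 4.0.16 in R 4.3.3 on counts (TMM, quasi-likelihood F test, Benjamini-Hochberg, tested on simulated data), with only the groups compared. The SE is the fold change divided by the square root of F. Alternatives were relative log expression factors, ERCC scaling, DESeq2 1.42.0, no gene filter, the first library of repeats, all 6 groups in a fit, plate rows (A to C with 5 WT and 3 KO mice, D to F with 2 and 4) as a term or apart, each mouse left out and the mouse as a replicate block. Plate rows are a reading of the letters A to F in the library codes, which do not themselves name a plate. Each plate row held 1 tissue apart from 3 repeat libraries, which stood in a row of another tissue. A difference between tissues therefore cannot be told from one between single rows. Fits of rows A to C or D to F alone used the genes of the full comparison. The mouse number pairs the tissues, since it marks the same animal; same-mouse deviations from group means correlated at 0.066 to 0.14 on average over 14822 genes. The study's methods name no block, so the main design has none.

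The enzyme genes and all lists were chosen with earlier results of these data known. All enzyme genes were named. Other pathway genes were named if past the threshold between layers in both genotypes or, for receptors, at a group mean of 5 CPM or more. Pla2g5 and Pla2g2d were named besides, as secreted phospholipases called in KO alone. The 3 genes most like each enzyme gene of at least 20 CPM on average were named by Spearman correlation. Gene positions are from GENCODE vM1 (NCBIM37, the same assembly as mm9), and promoters from RefSeq (GRCm38.p6). Intervals and floors cover counting error or the spread between mice only.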

Additional observations from a re-analysis of the deposited data

Results flagged for a closer look

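In 3 of 60 groups of 7 samples (each gene in each tissue and genotype), a single mouse stood far from the rest by Dixon's criterion on log2(CPM + 1), close to the 5% that chance gives. Ptgs1 in KO uterus was highest in mouse 14, at 79.55 CPM with the next mouse at 23.88 (gap over range 0.7292), and that mouse was also the highest of its group in endometrium. Ptges3 in WT uterus was lowest in mouse 5, at 18.29 CPM, with every other mouse of the group well above it (0.6994). Hpgd in KO endometrium was lowest in mouse 11, at 1.688 CPM, a single count, with the next at 7.945 (0.6192).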

How the results depend on the processing

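Depth limited Ptgs2, Ptgds, Ptges and Ptges2 most, since many of their samples held 3 counts or fewer. Among 22 fold changes of the enzyme genes with an unadjusted p under 0.05, 386 values under other settings gave 319 on the same side of the threshold, 29 that lost the call, 38 that gained it and 0 that turned direction. The called Ptgis differences between the layers were called in every setting, and the genotype comparisons and the interaction stayed at 0 of 10 in every setting run. The interaction was not run with plate rows or with single mice left out.

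The number of the 10 enzyme genes called moved by over 1.5 times as follows, and the cause was not tested. With the mouse as a replicate block it was 5 in place of 1 for endometrium over myometrium in WT, 3 in place of 0 for uterus over endometrium in WT, 1 in place of 0 for the same in KO and 1 in place of 0 for uterus over myometrium in WT, and this block changed no other count of the 10 genes. With plate rows as a term it was 2 in place of 1 for endometrium over myometrium in WT and 2 in place of 1 for uterus over myometrium in KO. For uterus over endometrium in WT, spike-in scaling gave 2, DESeq2 2, no gene filter 1 and all 6 groups in a fit 1, in place of 0. For uterus over myometrium in WT, spike-in scaling gave 2, DESeq2 1, no gene filter 1 and rows D to F alone 1, in place of 0. For endometrium over myometrium in KO, rows A to C alone gave 1 and rows D to F alone 1, in place of 3, and spike-in scaling, all 6 groups in a fit and plate rows as a term each gave 2. For uterus over endometrium in KO, DESeq2 gave 1, all 6 groups in a fit 1 and rows A to C alone 1, in place of 0. For uterus over myometrium in KO, no gene filter gave 2, and all 6 groups in a fit, rows A to C alone and rows D to F alone each gave 0, in place of 1. Fits of fewer mice have less to test with. The number called over all genes moved too. The block gave 1850 in place of 1746 for endometrium over myometrium in WT. For uterus over endometrium it gave 671 in place of 210 in WT and 475 in place of 162 in KO. For uterus over myometrium in WT it gave 1678 in place of 1579. DESeq2 gave 471 and 431 for uterus over endometrium in WT and KO. Spike-in scaling gave 518 in place of 210 for uterus over endometrium in WT, 504 of them higher. For uterus over myometrium in WT it gave 4567 in place of 1579, 4434 of them higher. There DESeq2 gave 1793, no gene filter 1561 and rows D to F alone 401. For endometrium over myometrium in KO spike-in scaling gave 3049 in place of 2508. There rows A to C alone gave 1202 and rows D to F alone 823.

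With each mouse left out in turn the count ran from 1 to 2 for endometrium over myometrium in WT, 0 to 2 for uterus over endometrium in WT, 0 to 1 for uterus over myometrium in WT, 1 to 2 for endometrium over myometrium in KO, 0 to 1 for uterus over endometrium in KO and 0 to 1 for uterus over myometrium in KO. The settings were also applied to the other pathway genes, a choice made after seeing the data. Between the layers these gave 1 to 7 higher in WT and 2 to 12 in KO, and 1 to 6 lower in WT and 0 to 6 in KO, with the lowest counts in fits of rows A to C or D to F. Of those named, Ptger2 in KO, uncalled at 0.06, turned to -0.0004046 with DESeq2, -0.13 in rows D to F alone and as low as -0.24 to a high of 0.62 with a mouse left out. DESeq2 gave no adjusted p for Ptgds between genotypes in uterus.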

Other observations

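Among the other pathway genes, Pla2g2e, a secreted phospholipase singled out after its values were seen, was uneven between KO mice. It ran from 0 to 34.2 CPM in KO endometrium and from 0 to 29.0 in KO uterus, with medians of 0 and 1.04, against highest values of 3.33 and 5.15 in WT. The log2 fold change of KO over WT was 3.43 ± 1.29 in endometrium (edgeR, unadjusted p = 0.014, adjusted p = 0.91) and 3.12 ± 1.11 in uterus (unadjusted p = 0.00996, adjusted p = 0.68), and neither passed the threshold.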
